A study of Mus musculus with 2 samples.

Results

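The subject is a set of weakly modified GGACA positions in mouse transcripts, called weak A-ending sites here because GGACA was the only listed motif that ends in A. They were selected on the measured fraction modified: a position had to be listed in both libraries on the same transcript version, be covered by 20 or more reads in each, and carry a fraction of 0.25 or less in each. This left 242 of 2001 shared A-ending sites, or 12.1%, on 229 transcripts of 218 named genes, and 3 of the sites had no gene name. The remaining 1759 A-ending sites, on the same coverage terms, are the comparison used throughout. Fractions chose the members, so their fractions are described and not tested.

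N6-methyladenosine (m6A) is a methyl mark that the METTL3 and METTL14 methyltransferase writes on adenosines of messenger RNA. Its usual sequence context has a purine and the methylated adenosine before a cytosine, and YTH-domain proteins that read it influence the splicing, translation and decay of the transcript. In neural tissue the mark is known for marking transcripts of progenitor genes for turnover.

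The study examines METTL3 in retinal development, and this series holds 2 libraries of native poly(A) RNA from organoids. Retinal organoids are cultured stem cell aggregates that form early eye tissue. The cells were the WT Rx:GFP mouse line, whose GFP reporter follows the eye-field gene Rax, kept in medium with AGN at 0.1 µM and collected on day 6. Each library took 1 µg of RNA, was prepared with the SQK-RNA002 direct RNA kit and ran for about 48 h on a FLO-MIN106D flow cell of its own. Both carry the same batch label and form a single group (n = 2), with no untreated, mutant or modification-free sample. Nothing in the labels says that the 2 came from separate cultures, so the spread between them may be technical.

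Over the weak sites replicate 2 had a median of 2-fold the reads of replicate 1. Replicate 1 listed 8952 A-ending positions and replicate 2 listed 17100, of which 2330 and 5773 had 20 or more reads. Of 10 eye-field and retinal progenitor markers, 9 were listed in each library, with summed peak coverages of 562 and 1181 reads. None of 9 pluripotency markers and none of 6 mesoderm and endoderm markers was listed in either library, and of 7 neuronal markers Tubb3 alone was, at 11 and 17 reads. Of 5 retinal pigment epithelium markers, 1 was listed in replicate 1 and 3 in replicate 2, with summed peak coverages of 6 and 32 reads. Of 5 markers of non-retinal forebrain and midbrain, 2 were listed in replicate 1 and 3 in replicate 2, with summed peak coverages of 48 and 141 reads. The part of these other cell types in the results was not tested. Coverage in these tables counts reads over listed motifs only, so a marker that is not listed may still be expressed.

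No transcript sequence was at hand for the weak sites themselves. To show which base of the motif a listed position marks, listed positions near a transcript start were matched to RefSeq gene starts (GRCm38.p6). Both sites printed next are shared A-ending sites of the comparison set, not weak ones, with the motif in capitals.
Alyref: ggccgacaaaatGGACAtgtc
Brk1: gccgccatggcgGGACAagaggatccggt
The first is the minus strand of chr11:120598316-120598336 (GRCm38.p6), in the start of Alyref, an mRNA export adaptor, where the listed position is 45 nt from the start and the motif begins at 42. The second is the plus strand of chr6:113604773-113604801, in the start of Brk1, a subunit of an actin-regulating complex, where position 17 was listed and the motif begins at 14. Of 155 positions in the first 50 nt of a transcript, of any of the 4 motifs and any coverage in either library, 51 had their motif in the first 50 RefSeq bases, and in 24 of these the listed position was base 4 of the motif, while the next most common placement held 3. Positions below are the listed ones.

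The weak sites sat well below the rest of their motif in both libraries. The median weak site had a fraction of 0.125 (quartiles 0.0755 and 0.167) in replicate 1 and 0.129 (quartiles 0.0769 and 0.177) in replicate 2, against 0.765 and 0.744 at the other A-ending sites. The fraction was 0.1 or less in both replicates at 57 weak sites and 0.05 or less in both at 8. It was 0 at 11 sites in replicate 1 and at 3 in replicate 2, and 0 sites were at 0 in both, so some modified reads were reported at every weak site in at least one library. Fractions this low were common at the other listed motifs: 43.9% of 816 AGACT sites, 48.9% of 1162 GGACC sites and 44% of 1242 GGACT sites were at 0.25 or less in both replicates. Weak sites were thus a minority at GGACA and far more frequent at the other motifs.

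**Figure D1:**
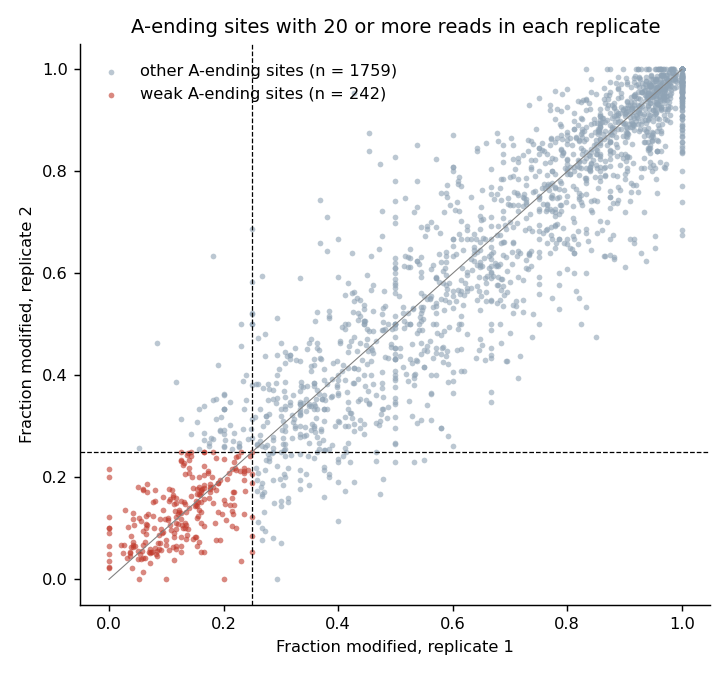
Fraction modified in replicate 1 (x axis) and replicate 2 (y axis) at each of 2001 shared A-ending sites, with the 242 weak sites in red, the 1759 others in grey, dashed lines at 0.25 and the line of equality in grey. The weak sites fill the lower left corner by the rule that chose them, and the others reach to the upper right corner, with medians of 0.765 and 0.744.

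Within the set neither replicate lay consistently higher. Replicate 2 had the higher value at 122 sites, the lower at 116 and the same at 4, with a median difference of 0.0014 and an SD of 0.0619. The choice of members limits this difference to at most 0.25, and the widest was 0.216. The SD of the difference narrowed with depth, from 0.0781 at the 84 sites with 20 to 29 reads in the shallower library to 0.0403 at the 36 sites with 100 or more.

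Each library could also be read at sites that the other had chosen, among the 2001 shared A-ending sites only. Of these 2001, 301 were at 0.25 or less in replicate 1 and 311 in replicate 2. Of the 301 sites chosen in replicate 1, 242 (80.4%) were at 0.25 or less in replicate 2 as well. The median of the 301 there was 0.152, against 0.667 for all 2001 sites. Of 311 sites chosen in replicate 2, the same 242 (77.8%) were at 0.25 or less in replicate 1, with a median of 0.154 against 0.688. With 50 or more reads in each library these shares were 87.9% (94 of 107) and 86.2% (94 of 109). Few sites crossed above 0.5: 5 of the sites chosen in replicate 1 were above 0.5 in replicate 2, and 2 the other way. The widest mismatch was at Tprgl position 973, at 0.182 over 21 reads in replicate 1 and 0.634 over 67 in replicate 2. Among the 2001 shared sites, weakness at this motif was therefore mostly found in both libraries, and more often so where coverage was higher. Taken alone, with no need for a shared listing, replicate 1 had 384 sites of 2330 at 0.25 or less. Replicate 2 alone had 993 of 5773. Those outside the 2001 were not read in the other library, so these percentages do not cover them.

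The 10 deepest members lay in 9 genes. The deepest was in Eef1a1, which carries aminoacyl-tRNA to the ribosome (chromosome 9, 78385731 to 78396433) and had 2 weak sites on a single transcript. Position 403 was at 0.21 over 3678 reads (replicate 1) and at 0.209 over 7285 (replicate 2). At position 163 it was 0.134 over 3512 reads and 0.132 over 6950. The replicates differed by less than 0.01 at both positions, while the gap between the positions was wider than that in each library. Gene coordinates are given as deposited. The submitters' processing notes name mm10, the same assembly as GRCm38, yet 3.03% of 8174 deposited gene starts lay within 1000 bases of the RefSeq start on GRCm38.p6, so their build is not settled.

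Ribosomal protein transcripts followed. Rps16, of the small subunit (chromosome 7, 28050077 to 28052580), had 0.159 over 2209 reads and 0.166 over 3422 at position 381. Rpl26, of the large subunit (chromosome 11, 68792409 to 68797815), had 0.0908 over 1532 reads and 0.099 over 2280 at position 228. Btf3, a subunit of the complex that meets nascent chains at the ribosome, had 0.218 and 0.229 at position 776 over 537 and 866 reads. Eif5a, a translation elongation factor, had 0.102 and 0.116 at position 1220 over 447 and 749 reads. All 4 lay slightly lower in replicate 1 than in replicate 2.

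The other deep members are genes of glycolysis, calcium signalling, the cytoskeleton and replication. Pkm, which encodes the pyruvate kinase of glycolysis, had 0.215 and 0.159 at position 1009 over 461 and 964 reads. Calm2, a calmodulin gene, had 0.138 and 0.0984 at position 1034 over 434 and 743 reads. Vim, the intermediate filament vimentin of neural progenitors, had 0.235 and 0.212 at position 1560. Pcna, the sliding clamp of DNA polymerase, had 0.228 and 0.213 at position 1014. All 4 lay higher in replicate 1 than in replicate 2. The 10 deepest members thus ranged in mean fraction from 0.0949 (Rpl26) to 0.224 (Btf3), and none lay near 0.

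The lowest fractions with 50 or more reads in each library fell in genes of varied function. Cd24a, a surface glycoprotein of immature neural cells, had 0.0366 over 97 reads and 0.0462 over 217 at position 603. Apoe, the lipid carrier apolipoprotein E, had 0.0238 over 50 reads and 0.0508 over 69 at position 429. Polr2h, a subunit shared by the nuclear RNA polymerases, had 0.0548 over 86 reads and 0.0488 over 153 at position 757. These 3 stayed under 0.06 in both libraries. Rab2a, a trafficking GTPase, had 0.05 and 0.0549 at position 1437, and Tead2, a transcription factor of the Hippo pathway, had 0.058 and 0.0552 at position 1328. Mcm6, of the replicative helicase, had 0.0417 and 0.0641 at position 1624. Txnl4a, a component of the spliceosome, had 0.0204 and 0.0667 at position 238, and Serpinh1, a collagen chaperone, had 0.0426 and 0.0682 at position 1307. The order among these 8 is not resolved, since their mean fractions of 0.0373 to 0.0566 lie closer together than several of the replicate pairs.

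At the edge of the rule, with 50 or more reads in each, the nearest members were an unnamed gene's site (transcript ENSMUST00000183528.8, position 449) at 0.247 and 0.243, Samm50 at 0.243 and 0.215, and Gpi1 at 0.136 and 0.243. Just outside it stood Hspa4 at 0.158 and 0.255, Ptma at 0.257 and 0.219, and Ptpa at 0.258 and 0.263. The values on either side of 0.25 form a continuous range.

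Many weak sites shared a transcript with A-ending sites of higher fraction. Of the 242, 136 shared their transcript with at least 1 other A-ending site of 20 or more reads, and 106 were the sole such site of their transcript. At those companion sites the median was 0.655 in replicate 1 and 0.633 in replicate 2, against 0.662 and 0.66 at the companions of 1026 other A-ending sites. The difference, weak minus other, was -0.00703 in replicate 1 and -0.0269 in replicate 2, a mean of -0.0169 ± 0.014 (SD, n = 2), and it had the opposite sign with a minimum of 50 reads (0.0106), with a highest fraction of 0.2 (0.00348) and with members chosen and read in replicate 1 alone (0.00659). A weak companion was present for 26 of the weak sites (19.1%) and for 210 of the others (20.5%). An exact two-sided paired permutation over the 2 replicates gave p = 0.5 for the companion fractions, which is the smallest value this design can give, and the same holds for every weak-against-other comparison here that has a value per replicate.

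Weak and other A-ending sites were then paired within transcripts. There were 231 such pairs on 121 transcripts, with a median gap in mean fraction of 0.616, and the gap exceeded 0.5 in 143. The other site lay downstream in 126 pairs and upstream in 105. The rule itself holds one side of each pair at 0.25 or less, and the median gap is close to the difference between the medians of all weak and all other sites (0.125 and 0.765 in replicate 1, 0.129 and 0.744 in replicate 2). The gaps are therefore a description of where low and high sites share a transcript, and their size is no finding.

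Tead2 (chromosome 7, 44865177 to 44883068) gave the widest gap with 50 or more reads at both sites. Its weak position 1328 stood at 0.058 and 0.0552, and position 1698, 370 nt downstream, at 0.967 and 0.989. The same transcript carried a further high site at position 136 (0.955 and 0.977) and an intermediate one at 1667 (0.302 and 0.294). The replicates lay far closer to each other at each of the 4 sites than the low sites lay to the high ones.

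Mcm6 (chromosome 1, 128259327 to 128287401) had weak sites at positions 1128 (0.0667 and 0.171) and 1624 (0.0417 and 0.0641). Its site at 1589, a short way upstream of the second, was at 0.697 and 0.748, and that at 2719 was at 0.946 and 0.961. Low and high sites thus alternated along the transcript. Scd2, a fatty acid desaturase (chromosome 19, 44282113 to 44295303), alternated as well: position 2742 was at 0.0652 and 0.1, positions 3688 and 3946 were above 0.9 in both replicates, position 4365 was at 0.0698 and 0.0542, and position 4995 was at 0.83 and 0.787.

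In the other 5 transcripts of this kind the low site could come first or last. It came last in Bub3, a spindle checkpoint gene, at position 1296 (0.114 and 0.0826) after 0.987 and 0.991 at position 228. Psmd3, a proteasome regulatory subunit, had 0.125 and 0.0654 at position 2084 and 0.977 and 0.975 at position 903. Rab2a had 0.905 and 0.938 at position 832, upstream of its weak site. The weak site came first in Ctsd, a lysosomal protease, at position 696 (0.125 and 0.0833), with 0.97 and 0.961 at position 1937. In Cnn3, an actin-binding calponin, the weak sites at 228 (0.0976 and 0.118) and 992 (0.165 and 0.179) preceded a site at 1527 of 0.954 and 0.957. No single end of the transcript held the low site in these 8.

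**Figure D2:**
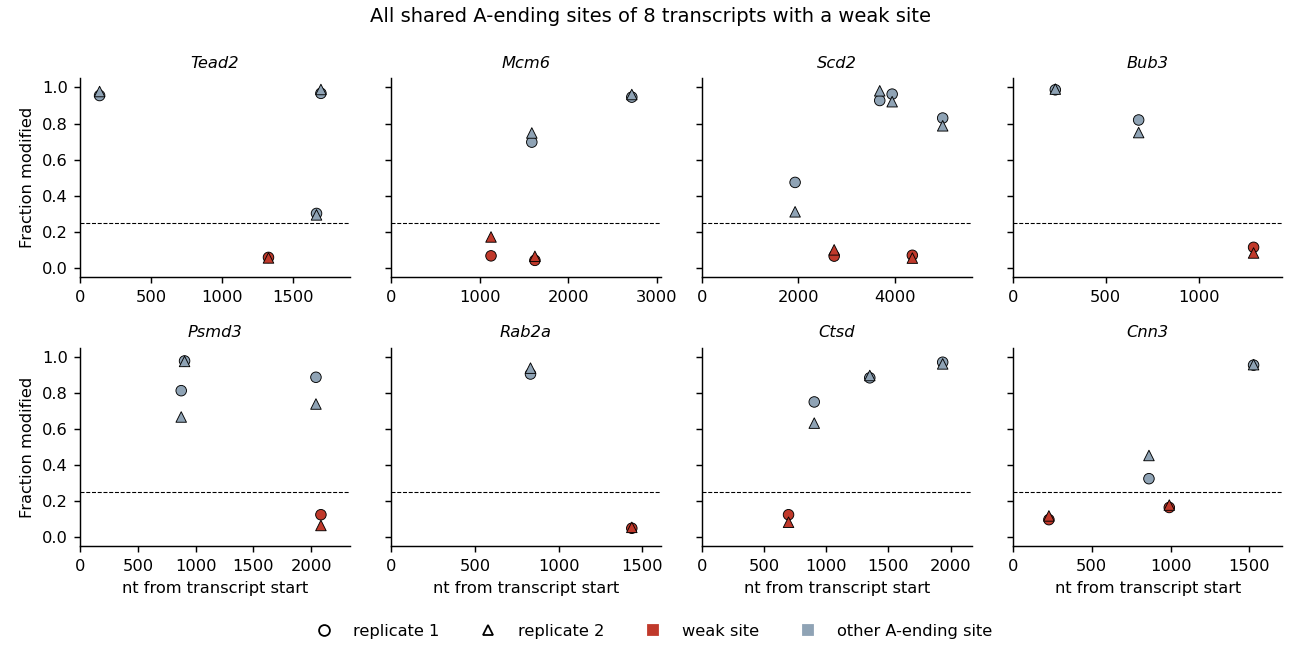
Fraction modified (y axis) against position from the transcript start in nt (x axis) at every shared A-ending site of 8 transcripts, for replicate 1 (circles) and replicate 2 (triangles), with weak sites in red, other sites in grey and a dashed line at 0.25. Tead2, Mcm6, Scd2 and the rest carry red points near 0 and grey points near 1 on the same transcript.

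Contrasts were also seen over short distances. Of the weak sites, 17 (7.02%) had another A-ending site within 50 nt, and of the other sites 126 (7.16%) did. In 15 such pairs the neighbour was not weak, and in 10 of these the gap exceeded 0.5. Ccnf, which encodes the F-box protein cyclin F (chromosome 17, 24441172 to 24470458), had 0.0588 and 0.0667 at position 2557 and 0.95 and 0.946 at 2596, over 26 and 63 reads at the weak position. Rtl8b, a retrotransposon Gag-like gene on the X chromosome, had 0.0714 and 0.0317 at position 765 and 1 and 0.929 at 813. Its paralog Rtl8a, also on X, had 0.0588 and 0.177 at 716 and 0.957 and 0.932 at 764, again 48 nt away. Whether reads were split between these paralogs was not tested. Tmem223 had 0.143 and 0.164 at position 557 against 0.942 and 1 at 547, and Timm22, a mitochondrial carrier translocase gene, had 0.182 and 0.15 at 385 against 0.862 and 0.905 at 420. Coverage was alike at both positions of these pairs, for example 33 reads at each Timm22 position in replicate 1.

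Other motifs on the same transcripts were close to those elsewhere. On 153 transcripts with a weak site and a shared site of another motif, the median at those motifs was 0.267 in both replicates, against 0.25 and 0.243 on 723 transcripts with A-ending sites but no weak one. The difference was 0.0203 ± 0.00509 (SD, n = 2). It ran upward for each motif and replicate, for example 0.265 against 0.25 at GGACT in replicate 1, but not in each coverage class. The class here is that of the deepest A-ending site of the transcript. The difference ran upward in both replicates with 20 to 29 reads (0.267 against 0.249 in replicate 1, 0.333 against 0.25 in replicate 2). It also ran upward with 50 to 99 reads (0.291 against 0.234 in replicate 1, 0.253 against 0.222 in replicate 2). It ran downward in both with 30 to 49 reads (0.258 against 0.265, 0.249 against 0.258) and with 100 or more (0.237 against 0.238, 0.22 against 0.244). With a minimum of 50 reads at each site the difference was -0.0029, so its direction depended on the coverage class and did not follow depth.

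Coverage hardly separated the sets. The weak sites had a median of 40.5 reads in replicate 1 and 80.5 in replicate 2, the others 36 and 79, a mean ratio of 1.07 ± 0.075 (SD, n = 2), which fell below 1 with a minimum of 50 reads (0.986) and with members chosen in replicate 2 alone (0.973). As a share of the highest listed coverage of the transcript, weak sites had a median of 97.8% in replicate 1 and 98.7% in replicate 2, against 97.2% and 98.1%. This direction was turned at the 64 weak sites with 30 to 49 reads (92.6% against 97.2% in replicate 1, 94.4% against 98.1% in replicate 2), and it was turned too, at -0.573 percentage points, with members chosen and read in replicate 1 alone. The share of A-ending sites that were weak was 11.6% of 726 with 20 to 29 reads, 11.4% of 559 with 30 to 49, 13.7% of 424 with 50 to 99 and 12.3% of 292 with 100 or more. The weak share was not higher where coverage was low.

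With all coverage classes together, their place along the transcript was close to that of the others as well. The median position was 888 nt from the transcript start (interquartile range 516 to 1539), against 1018 (560 to 1660), a difference of -130 nt. It was -123, -162 and -67 nt in the 3 lower coverage classes and 149.5 nt in the highest, where the weak median was 884 and the other 734.5. When members were chosen and read in replicate 1 alone it was -123 nt and in replicate 2 alone -26.5 nt, so the direction was shared but the size was not. Of the weak sites 6 (2.48%) lay in the first 150 nt and 60 (24.8%) in the first 500 nt, and 12 (4.96%) lay beyond 3000 nt. The other sites had 2.56%, 21.5% and 5.29%. The site was the last listed position of its transcript for 26.9% of the weak and 26.2% of the others. The median distance to that last position was 321 nt against 347, but it varied with coverage. It was 334.5 against 434 nt with 20 to 29 reads and 648 against 351 with 30 to 49. With 50 to 99 reads it was 173.5 against 294, and with 100 or more 21.5 against 186.5. The tables do not place positions in coding sequence or untranslated regions, and that placement was not analysed here.

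**Figure D3:**
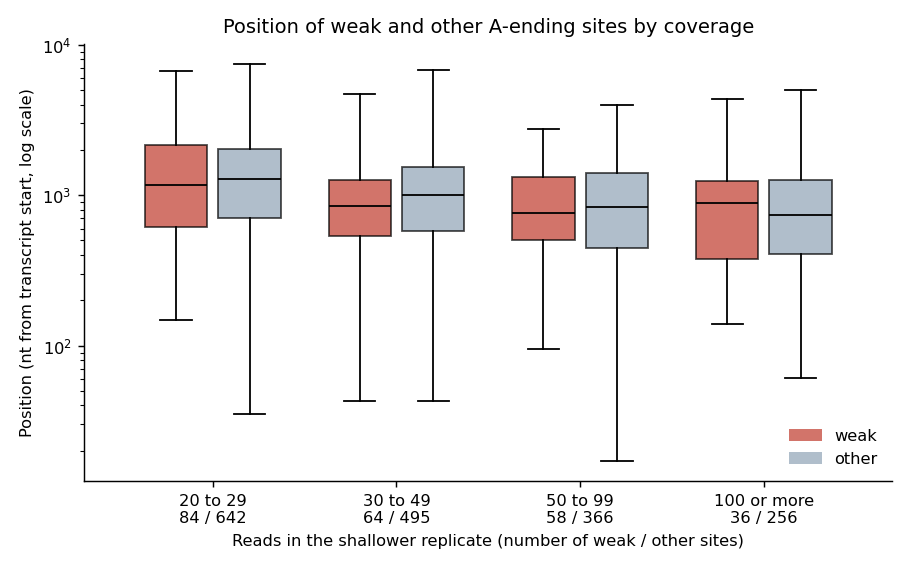
Position from the transcript start in nt (log scale, y axis) for weak (red) and other (grey) A-ending sites in 4 classes of coverage in the shallower replicate (x axis, with the number of weak and other sites). Boxes span the quartiles, the line is the median and whiskers reach the lowest and highest site. The weak median is lower in 3 classes and higher in the class of 100 or more reads (884 against 734.5 nt).

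Several genes carried more than one weak site. On 13 transcripts there were 2 weak sites and on none were there 3. The 8 of these with the most reads, summed over both libraries, belonged to Eef1a1, Cnn3, Scd2, Mcm6, Ipo5, Hmgcs1, Eif3d and Tle5. Hmgcs1, an early enzyme of cholesterol synthesis, had 0.0588 and 0.176 at position 1700 and 0.167 and 0.185 at 2299, while its site at 2490 was at 0.707 and 0.76. Eif3d, of the initiation factor that joins the small ribosomal subunit to mRNA, had 0.2 and 0.236 at position 308 and 0.1 and 0.0769 at 404. Tle5, a Groucho-family corepressor, had 0.139 in both replicates at position 706 and 0.226 and 0.242 at 899.

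A further 7 genes, Btf3, Gnas, Lsm3, Rnps1, Rpl22, Rpl26 and Rtn4, had weak sites on more than one annotated transcript. The tables list each transcript separately, so one genomic base can appear on several isoforms; whether it did here was not tested. Rnps1, which helps deposit the exon junction complex (chromosome 17, 24633539 to 24644875), had them on 3 transcripts, at 0.0385 and 0.0847, at 0.114 and 0.0385, and at 0.0833 and 0.0556. Each of the 3 lay 674 nt before the last listed position of its transcript. The Rpl26 pair was less alike, with 0.0908 and 0.099 on the deep transcript and 0.218 and 0.171 on one of 71 and 98 reads. Of the 218 named genes, 213 (97.7%) were protein-coding in RefSeq, 2810025M15Rik was a lncRNA, and 4 did not match by name. Among genes with A-ending sites but no weak one, 961 (98.3%) were protein-coding, 11 were pseudogenes and 6 did not match.

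The homeobox and eye-field list, which also takes in Notch pathway and Sox genes, held weak sites. Of 15 shared A-ending sites in 8 genes of the homeobox and eye-field list, 4 were weak (26.7%, against 12.1% of all A-ending sites), each in a different gene. Hes1, a Notch target that keeps progenitors undifferentiated (chromosome 16, 29883202 to 29886614), had 0.152 over 153 reads and 0.0829 over 271 at position 1158. Lhx2, a homeodomain factor needed for the optic vesicle (chromosome 2, 38229293 to 38259745), had 0.237 over 99 reads and 0.174 over 230 at position 2017. Sox3, a neural progenitor factor of the SoxB1 group (chromosome X, 59934972 to 59937036), had 0.128 over 58 reads and 0.106 over 161 at position 789. Sox11, a SoxC factor of newborn neurons (chromosome 12, 27384263 to 27392573), had 0.0769 over 25 reads and 0.125 over 59 at position 6668, the member farthest from its transcript start. The other 11 sites of the list were not weak. Lhx2 itself had 0.744 and 0.823 at position 1495 and 0.841 and 0.956 at 1854, and Sox3 had 0.5 and 0.453 at 1890. Rax, the eye-field gene that the reporter follows, had 0.981 and 0.96 at position 138, 0.85 and 0.853 at 1196, and 0.3 and 0.25 at 1411. Sfrp2, a secreted Wnt modulator, had 0.256 and 0.382 at 665 and 0.928 and 0.883 at 1005. Sox2 had 0.517 and 0.634 at 491 and 0.412 and 0.557 at 833, and Nr2f1 had 0.579 and 0.55 at 1448. Low and high sites thus occurred within the list and within single genes of it. The genes coding for m6A enzymes and readers gave 1 shared A-ending site, in the reader Igf2bp3, which at 0.261 and 0.383 was not weak.

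The lists of translation and RNA processing genes held weak shares on both sides of the overall 12.1%. Translation factors had 9 weak of 55 A-ending sites (16.4%), in Eef1a1, Eif2s1, Eif3b, Eif3d, Eif4a3, Eif4h and Eif5a. Cytosolic ribosomal proteins had 5 of 44 (11.4%), in Rpl22, Rpl26 and Rps16. Mitochondrial ribosomal proteins had 6 of 35 (17.1%), the deepest in Mrpl14, at 0.0638 and 0.123 at position 391. RNA helicases had 3 of 18 (16.7%), among them Dhx15, of spliceosome disassembly, at 0.219 and 0.146 at position 1652 and 0.217 and 0.171 at 477. The splicing list was lower, with 3 of 58 (5.17%), in Snrpd1, Snrpn and Srsf5. It goes by the start of the symbol and leaves out the spliceosome gene Txnl4a, with weak sites at positions 238 and 600. Its share therefore covers only genes that fit that rule.

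Genes of the cell cycle and of protein quality control followed. Replication and cell cycle genes had 11 of 63 (17.5%), including Mcm4 and Mcm6 of the replicative helicase, Orc6 of the origin recognition complex, Rfc5 of the clamp loader, Pcna, and the cyclin genes Ccnb1, Ccnd2, Ccnf and Ccnq. Cdc37, which entered by its symbol, is a chaperone cofactor. Chaperones had 5 of 46 (10.9%), with Cct4 of the cytosolic chaperonin at 0.107 and 0.106 at position 1961 and Cct2 at 0.0862 and 0.0703 at 337. Proteasome and ubiquitin genes had 6 of 55 (10.9%), with Psmb4 at 0.103 and 0.121 at position 566.

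The remaining lists were small. Chromatin symbols had 4 of 21 (19%), of which 2 were in Hmgcs1, a metabolic enzyme caught by its Hmg prefix, and the others in Hdac2 (0.123 and 0.136 at position 1749) and Hmgn3. Oxidative phosphorylation had 2 of 29 (6.9%), in Ndufa6 (0.187 and 0.175 at position 374) and Ndufa10. The cytoskeleton list had 2 of 21 (9.52%), in Vim and Myl9, and solute carriers had 1 of 7 (14.3%), in the glucose transporter gene Slc2a1 at 0.105 and 0.0566. Zinc finger genes had 0 of 12 and histone genes 0 of 7, and no mitochondrially encoded gene had a shared A-ending site. Across the 17 lists, 7 were above and 9 below the overall 12.1%, and 61 of 487 sites in any list were weak (12.5%). A further 181 weak sites were in none of the lists. No list held more than 11 weak sites and no test was made, so nothing particular to a list follows from these shares.

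Gene groups that caught the eye among the members were then counted in full. They were chosen after these values were seen, so a share above 12.1% was built into the choice. Small GTPases, the switch proteins of vesicle traffic and cytoskeletal signalling, had 10 weak of 43 A-ending sites (23.3%), each in a different gene: Rab11a, Rab1b, Rab2a, Rab5c, Rab8a, Rac1, Rheb, Rhoa, Rhob and Sar1a. Rab8a had 0.0323 over 46 reads and 0.0408 over 65 at position 870, and at 787, on equally many reads, 0.972 and 0.955. Rab5c had 0.0455 and 0.0656 at position 454 and 0.975 and 0.989 at 1198. Rab1b, likewise at 454, had 0.152 and 0.146, with 0.904 and 0.868 at 1102. Rac1 had 0.108 and 0.0959 at 410, Rhoa 0.0893 and 0.119 at 679, and Rheb 0.0893 and 0.072 at 968. The family was not uniform, since Rab11a had 0.114 and 0.0909 at 333 while its paralog Rab11b had 0.8 and 0.795 at 267, and Rab5a, the paralog of Rab5c, had 0.833 and 0.679 at 467.

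**Figure D4:**
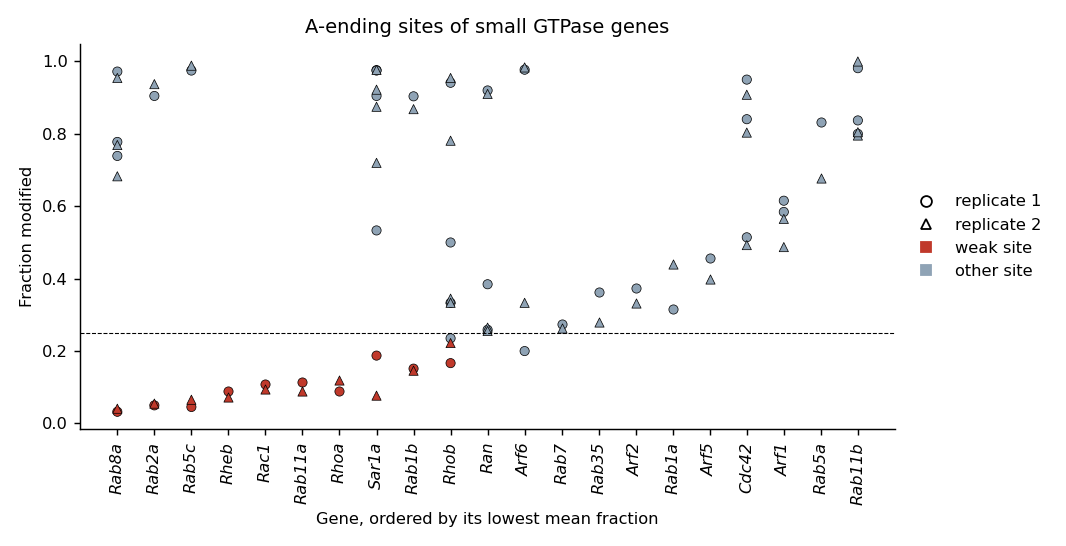
Fraction modified (y axis) at every shared A-ending site of 21 small GTPase genes (x axis, ordered by the lowest mean fraction of a site), for replicate 1 (circles) and replicate 2 (triangles), with weak sites in red, other sites in grey and a dashed line at 0.25. The 10 genes on the left hold the weak sites, and 6 of these genes also hold sites above 0.5.

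Mitochondrial import genes had 6 weak of 17 sites (35.3%), in Timm13, Timm17b, Timm22, Tomm5, Samm50 and the processing peptidase gene Pmpcb. Tomm5, of the outer membrane translocase, had 0.105 over 124 reads and 0.177 over 217 at position 341, while Tomm7 and Tomm20 of the same complex stood at 0.96 and 0.93 and at 0.964 and 0.955. Lsm proteins, the rings that bind small nuclear RNAs and decaying mRNA, had 4 of 7 sites in Lsm2, Lsm3 and Lsm5. In Lsm5 position 140 was at 0.0815 and 0.05 over 207 and 271 reads, and position 81 at 0.762 and 0.685 over 202 and 264. Importins, which carry cargo into the nucleus, had 3 of 8, and Ipo5 had 0.16 and 0.176 at position 632 and 0.122 and 0.131 at 2001.

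Metabolic genes showed the same mixture. Sterol and fatty acid synthesis genes had 7 weak of 25 sites (28%), in Hmgcs1, Fdps, Msmo1, Hsd17b12 and Scd2. Msmo1, a sterol demethylation enzyme, had 0.0926 and 0.0909 at position 765 and 0.919 and 0.945 at 1136. All 4 sites of Acat2, the thiolase at the start of the pathway, were higher, at 0.46 or above in each replicate. Genes of central carbon metabolism had 8 of 34 (23.5%), among them Glud1, Gpi1, Idh1, Ldhb, Pgd, Pkm and Tkt. Ldhb, a lactate dehydrogenase, had 0.147 over 112 reads and 0.179 over 225 at position 1077 and 0.764 and 0.794 at 1089, on the same number of reads. Pgd, of the pentose phosphate pathway, had 0.147 and 0.0794 at position 845 between sites of 0.96 and 0.885 at 217 and of 0.643 and 0.642 at 881. Idh1 of the cytosol had 0.138 and 0.247, whereas the mitochondrial Idh2 was above 0.6 at both of its sites.

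**Figure D5:**
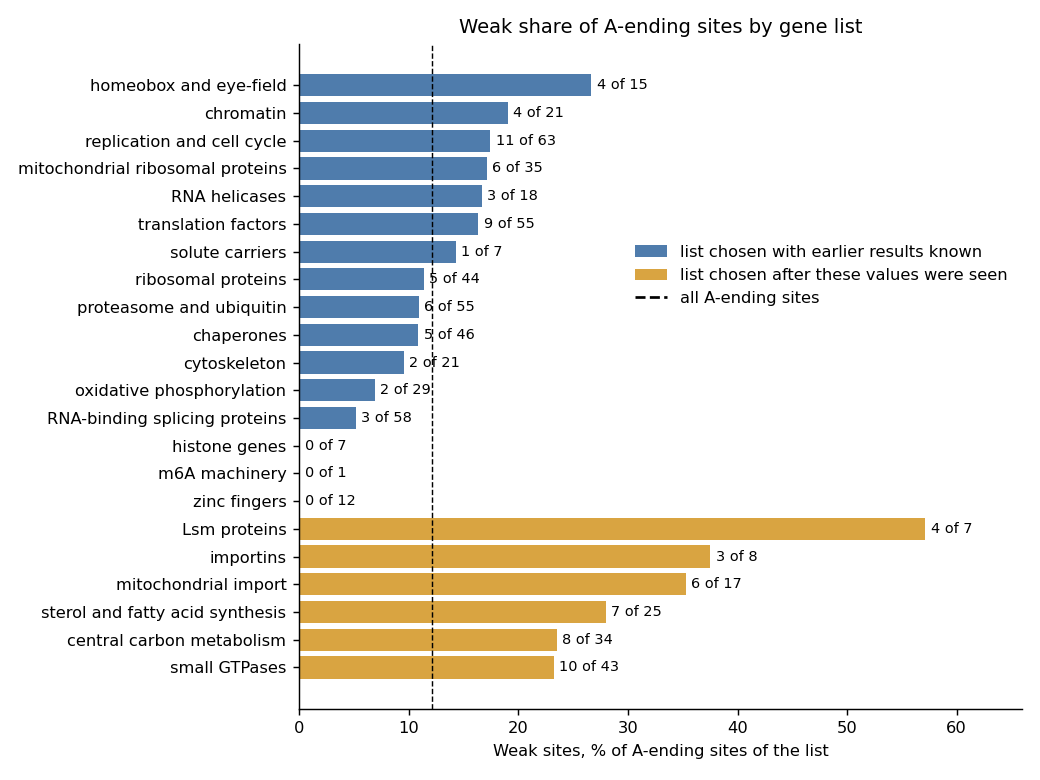
Weak sites as a percentage of the shared A-ending sites of each gene list (x axis), with the counts beside the bars. Blue bars are lists chosen with earlier results known, yellow bars are lists chosen after these values were seen, and the dashed line marks the 12.1% of all A-ending sites. Blue lists fall on both sides of the line, from 0 of 12 zinc finger sites to 4 of 15 sites of the homeobox and eye-field list.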

How the data were processed

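Each library was deposited as a plus table and a minus table of transcript positions. The fraction modified is a fraction from 0 to 1 as deposited by the authors, and coverage was deposited beside it as a read count, in whole numbers. The aligner, the modification caller and the denominator of the fraction are not given in the sources used here. Only 9.09% (replicate 1) and 7.02% (replicate 2) of the members had a product of fraction and coverage that was a whole number, allowing for a rounding of 5e-05 in the fraction, so no interval was set on a single fraction and its depth is known only through the coverage.

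Plus tables were matched on transcript version and listed end. Weak and other A-ending sites were compared in classes of the lower coverage (20 to 29, 30 to 49, 50 to 99, 100 or more). Sites are not replicates, so no test ran across sites. Values per replicate were compared with an exact two-sided paired permutation. The members and gene lists were chosen with earlier results of these data known.

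Sites were named by rule: the 10 deepest, the 8 lowest with 50 or more reads, the 3 on either side of the limit, the 8 transcripts with the most weak sites, the 8 widest gaps on a transcript, the 5 widest gaps within 50 nt, all eye-field and m6A members and the deepest of each other list. Other names were added after their values were seen. Tables were made with Python 3.11.15, pandas 2.3.3, numpy 2.4.6 and scipy 1.17.1, and figures with matplotlib 3.10.9. The selection was run on simulated data whose planted weak sites lay well inside the limits, and it recovered 100% of them. That outcome was fixed in advance, so it checks the code only and not the weak calls in these data. Alternatives were another coverage minimum, another highest fraction, 1 transcript per gene, the mean of both replicates, and each replicate alone. The minus tables were left out of the comparisons. Values of some single genes are not reported here.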

Additional observations from a re-analysis of the deposited data

Results flagged for a closer look

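The minus tables, which entered no comparison, also listed GGACA positions: 4 of 11 listed positions in replicate 1 and 13 of 35 in replicate 2. The 2 libraries analysed here include no control sample to set them against. At 20 or more reads 1 and 5 of them remained. One position, in Nopchap1, was at 0.25 or less, with 0.2 over 8 reads in replicate 1, and it stood at 0.438 over 28 reads in replicate 2. Of the genes with a weak A-ending site, 0 were listed in the minus table of replicate 1 and 1 in that of replicate 2.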

How the results depend on the processing

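The 242 weak sites in 218 genes became 787 in 676 with no added coverage minimum, 491 in 428 with 10 reads and 94 in 85 with 50. Replicates taken alone gave 384 to 993 sites in 334 to 803 genes. The weak share of 12.1% was 11.4% with no minimum, 13.1% with 50 reads, 9.05% at a highest fraction of 0.2, 15.4% at 0.3 and 14.6% with the mean of both, and 16.5% to 17.2% in single replicates. Sites in any gene list numbered 61, with 139, 100 and 33 at no minimum, 10 and 50 reads, and 89 to 191 in single replicates. Of 117 values for single lists, 43 moved by over 1.5 times. The position difference of -130 nt was -20 with 50 reads, -42.5 at 0.2, -43 with the mean of both, and -123 to -26.5 in single replicates, and it was negative under all 9 alternatives. The coverage ratio of 1.07 was 0.986 with 50 reads and 0.973 to 1.04 in single replicates. Coverage relative to the transcript maximum, 0.572 percentage points higher at weak sites, was 0.706 with no minimum, 0.322 with 10 reads, 0.999 with 50, 1.08 at 0.2, 0.951 at 0.3, 0.664 with 1 transcript per gene and 0.711 with the mean of both. In single replicates it ran from -0.573 to 0.485, so its direction did not hold in replicate 1 alone. The difference at other motifs, 0.0203, was 0.00253 with no minimum, -0.0029 with 50 reads, 0.0572 at 0.2 and 0.0118 at 0.3, and 0.00885 to 0.0167 in single replicates. That at other A-ending sites, -0.0169, was -0.0326 with 10 reads, 0.0106 with 50, 0.00348 at 0.2 and -0.0335 at 0.3, and -0.0296 to 0.00659 in single replicates. Fewer or more sites enter under each minimum by construction, and the cause of the other shifts was not tested. With 2 libraries of a single group, no modification-free control and an unknown denominator, the fraction that an unmodified site would show was not measured. The labels give a single group, so no fit with the replicate as a block across groups was made.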
